A study of Mus musculus with 12 samples.

Results

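*Arntl*, *Clock*, *Npas2*, *Nfil3* and *Cry1* were described in the livers of mice that drank plain or zinc-supplemented water and then received PBS or dexamethasone (Dex), a synthetic glucocorticoid. They were chosen by symbol as the activators of the circadian clock and the genes known to peak in their phase, and all 5 were found among the 54838 genes of the raw count table. The 12 C57BL/6J mice formed 4 groups of 3. Wild-type mice received water, or 25 mM ZnSO4 in the water, for 7 days, followed by an intraperitoneal injection of PBS alone or of 200 µg Dex in PBS, and the liver was taken 2 h later. The names water-PBS and water-Dex stand for the mice on plain water, zinc-PBS and zinc-Dex for those on zinc water. According to the methods, C57BL/6J mice were bought as females and used as young adults. The hour of the day at which each liver was taken, and the order of sampling, are not given in the sources used here, so for genes that cycle over the day a difference in sampling time cannot be told apart from the treatment.

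In the molecular clock, BMAL1 (the product of *Arntl*) pairs with CLOCK or its paralog NPAS2 and binds E-boxes to switch on the *Per*, *Cry*, *Nr1d1*, *Nr1d2* and *Dbp* genes. PER and CRY proteins then repress this complex, while the REV-ERB receptors (*Nr1d1*, *Nr1d2*) repress and the ROR receptors activate *Arntl*, *Clock*, *Npas2*, *Nfil3* and *Cry1* through a shared DNA element. NFIL3 is a repressor that competes at D-boxes with the activators DBP, TEF and HLF. In liver this circuit times many metabolic genes, and glucocorticoids are one of the signals that set it.

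The promoter windows of these genes were searched for the sequences by which the clock and the glucocorticoid receptor are known to act, and the matches are shown here because they are the elements that the background above refers to. RefSeq windows (GRCm38.p6) covered 250 bases before a gene's start, and 8 windows matched the 5 genes. The letters searched on both strands were CACGTG for the E-box, TAGGTCA or TGGGTCA for the ROR and REV-ERB element, TTATGTAA or TTACGTAA for the D-box and ACANNNTGT for the core of the glucocorticoid receptor element, and no listed motif can lie wholly inside another. Capitals mark the match in each sequence, which is written in the sense of its gene. The *Nfil3* match is the reverse complement of the listed letters. It lies 12 bases before the RefSeq start and within a 5′ untranslated exon of the GENCODE M21 annotation. The *Cry1* match lies 60 bases before the start, outside the annotated gene. The *Arntl* match was seen only when the search was widened, after the data had been seen, to the 50 bases after the start, and lies 31 bases past the second of 2 RefSeq starts, in an untranslated exon.
Nfil3 ROR and REV-ERB element, chr13:52981034-52981062, minus strand: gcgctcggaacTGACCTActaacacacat
Cry1 E-box, chr10:85185098-85185125, minus strand: gtgccggtggtCACGTGgggtgcatgcc
Arntl ROR and REV-ERB element, chr7:113207530-113207558, plus strand: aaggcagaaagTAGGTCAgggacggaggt
*Clock* (3 windows) and *Npas2* held none of these letters. Of all 32851 windows, 6.02% held the E-box, 5.38% the ROR and REV-ERB element, 0.931% the D-box and 5.84% the glucocorticoid receptor core in the 250 bases before the start, and 6.45% held the ROR and REV-ERB element in the wider window that includes the bases after the start. A match is a description of the letters and no evidence of binding.

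In GRCm38 (mm10) coordinates of GENCODE M21, *Arntl* (ENSMUSG00000055116) lies at chr7:113207465-113314126 on the plus strand and *Npas2* (ENSMUSG00000026077) at chr1:39193731-39363236 on the plus strand. *Clock* (ENSMUSG00000029238) lies at chr5:76209868-76304792, *Nfil3* (ENSMUSG00000056749) at chr13:52967209-52981073 and *Cry1* (ENSMUSG00000020038) at chr10:85131700-85185064, all on the minus strand. All are protein-coding genes, and counts cover their exons as a whole.

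Total counts lay between 9091152 and 12303527 per library. The labels were checked on known target genes. *Slc39a4*, which encodes a zinc importer, was at 186 to 259 normalized counts in the 6 livers on zinc water and at 550.3 to 747 in the 6 on plain water. *Tsc22d3*, a target of the glucocorticoid receptor, was at 566 to 899 in the 6 PBS-injected livers and 2963 to 4260 in the 6 Dex-injected livers. All 6 hepatocyte markers were detected in each group. They summed to 1187900 to 1392800 normalized counts in PBS-injected livers and to 1556200 to 1706400 in Dex-injected livers. Of 4 pancreas markers, *Prss1* and *Cpa1* were at 0 in each library and *Ctrb1* was detected only in zinc-Dex. *Cela1* was detected in each group, and the 4 summed to 63.0 to 134 normalized counts. Markers of gut epithelium (3 of 3 detected) summed to 583 to 823. Summed markers of stellate cells (5 of 5 detected) were lower in zinc-PBS (4891 to 4928 normalized counts) than in water-PBS (5180.4 to 5303), but overlapped between zinc-Dex (5581 to 6672) and water-Dex (5712 to 5759). Those of lymphocytes (5 of 5 detected) were at 235 to 274 in PBS-injected and 166 to 220.3 in Dex-injected livers, and those of sinusoidal endothelium (5 of 5 detected) at 2911 to 3063 and 3402 to 3832. The part of these cells in the results was not tested. In bulk liver, fewer cells of a type and less RNA per cell cannot be told apart.

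Levels are given first in each mouse, as normalized counts (the count divided by the DESeq2 size factor of its library). *Arntl*, which encodes the obligate partner of the activator complex, was at 277, 201 and 248 in the 3 water-PBS livers and at 98.4, 147 and 139 in zinc-PBS. It was at 249.8, 262 and 231 in water-Dex and at 126, 137 and 43.2 in zinc-Dex. The 6 livers of zinc-treated mice thus lay below the 6 livers of mice on plain water, and zinc-Dex replicate 3 was the lowest of all 12. *Npas2*, the paralog of *Clock*, was at 65.1, 36.4 and 30.8 in water-PBS, 16.2, 22.7 and 4.53 in zinc-PBS, 29.4, 36.2 and 71.2 in water-Dex, and in zinc-Dex at 10.9, 19.99 and 8.65. Here too no zinc-treated mouse reached the lowest mouse on plain water, although the counts were small. The share of all genes that separate 6 livers from 6 in this way, by zinc or by Dex, was not counted, here or below.

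*Clock*, which encodes the other partner of BMAL1, was at 971, 793 and 857 in water-PBS and 713, 715 and 682 in zinc-PBS. It was at 1095, 1262 and 1137 in water-Dex, and in zinc-Dex at 983, 978 and 714. The zinc groups lay below their own controls in both injections, but by less than for *Arntl*, and the zinc-Dex livers overlapped the water-PBS livers. *Nfil3* was at 499.9, 258 and 197 in water-PBS and 214, 139.9 and 156 in zinc-PBS, which overlapped, and at 960.4, 955 and 979 in water-Dex, against 673, 721 and 575 in zinc-Dex. The 6 Dex-injected livers were all above the 6 PBS-injected ones, and among them the zinc-treated livers were the lower 3. *Cry1*, which encodes a repressor of the complex, was at 178, 91.9 and 65.9 in water-PBS, 58.7, 75.2 and 95.1 in zinc-PBS, 102, 109.5 and 111 in the water-Dex livers and 60.8, 45.5 and 38.4 with both treatments. The PBS-injected groups overlapped, while the zinc-Dex livers were all below the water-Dex livers.

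**Figure D1:**
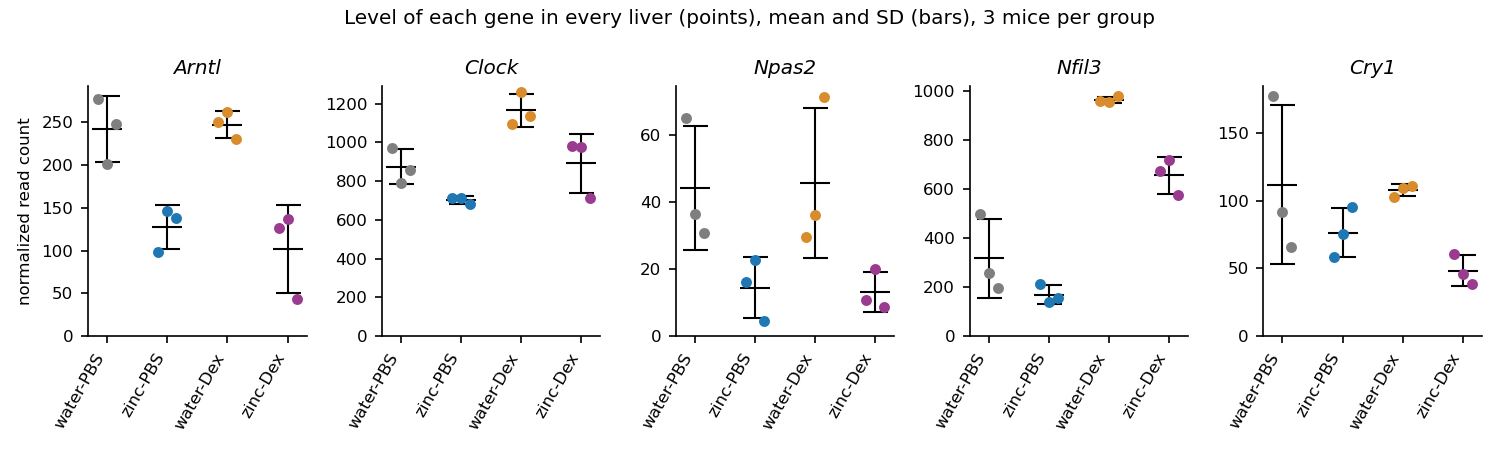
Normalized read count (linear axis from 0) of each gene in every liver, with 1 point per mouse, 3 mice per group, and the mean and SD as bars. *Arntl* and *Npas2* lie lower in each zinc-treated mouse than in each mouse on plain water, and *Nfil3* lies higher in each Dex-injected mouse than in each PBS-injected mouse.

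The spread within a group was uneven. In water-PBS, *Nfil3* and *Cry1* had means ± SD of 318 ± 160 and 112 ± 58.4 (n = 3), against 965 ± 12.3 and 108 ± 4.46 in water-Dex. Water-PBS replicate 1 was the highest mouse of its group for 5 of 5 genes, and it was the lowest of its group for *Dbp*, *Tef* and *Per3* but the highest for *Nr1d1*. Zinc-Dex replicate 3 was the lowest of its group for 5 of 5 genes and the highest of its group for *Dbp*, *Tef* and *Per3*, but again not for *Nr1d1*, for which it was the lowest. These 4 genes were chosen after their values were seen. For what share of all genes each of these livers was the highest or lowest of its group was not counted. For *Arntl*, *Clock*, *Npas2*, *Nfil3* and *Cry1*, results that rest on either liver are also given without it.

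Per transcript length, as TPM computed from the counts and the union of each gene's GENCODE exons, *Nfil3* was the most abundant of the 5 genes in water-PBS livers with 37.6 ± 18.6 TPM (SD, n = 3). *Clock* followed with 15.3 ± 1.56 TPM, then *Cry1* with 8.02 ± 4.11 and *Arntl* with 7.75 ± 1.25, which do not differ beyond their spread, and *Npas2* was the lowest with 2.21 ± 0.900. In water-Dex *Nfil3* reached 101 ± 3.15 TPM and *Clock* 18 ± 1.15, while *Arntl* (6.95 ± 0.314) and *Cry1* (6.82 ± 0.341) again did not differ beyond their spread. *Arntl* was at 4.11 ± 0.881 TPM in zinc-PBS and 2.76 ± 1.36 in zinc-Dex, and *Npas2* at 0.734 ± 0.476 and 0.561 ± 0.248. The level of *Clock* over that of its paralog *Npas2*, as a ratio of TPM in each mouse, was 5.21 to 9.72 in water-PBS, 11 to 52.6 in zinc-PBS, 5.57 to 13 in water-Dex, and 17.1 to 31.6 with both treatments. The zinc-treated mice had the higher ratios within each injection without overlap, and the wide range in zinc-PBS goes with the low counts of *Npas2*. *Arntl2*, the paralog of *Arntl*, was at 2.17 to 12.6 normalized counts and was not called in any comparison.

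The effect of zinc alone was asked by zinc-PBS against water-PBS. All 5 genes had lower means in zinc-PBS. In the DESeq2 fit of all 12 libraries 0 of 5 were called, against 0.138% of all 12307 genes tested. A call needed an adjusted p under 0.05 and a log2 fold change beyond 0.8 in either direction. edgeR also called 0 of 5. At an unadjusted p under 0.05, 4 of 5 were lower in DESeq2, against 2.45% of all genes. In 3 of 5, *Arntl*, *Clock* and *Npas2*, every zinc-PBS library lay below every water-PBS library, against 6.01% of all genes. The log2 fold change was -0.92 ± 0.286 (SE) for *Arntl* (adjusted p = 0.189), -1.60 ± 0.5 for *Npas2* (0.192) and -0.31 ± 0.129 for *Clock* (0.593). It was -0.90 ± 0.255 for *Nfil3* (0.0897) and -0.55 ± 0.306 for *Cry1* (0.918). The median over the 5 genes was -0.91, against 0.00 over all genes tested. *Arntl* was called (adjusted p = 0.00192) when the fit held no other group. *Nfil3* was called without water-PBS replicate 3 (-1.15, adjusted p = 0.000358) and without zinc-PBS replicate 1 (-1.11, 0.038), and stood at -0.42 without water-PBS replicate 1. *Cry1* stood at -0.06 without that mouse, so its lower mean in zinc-PBS rested on it, while *Arntl* (-0.81), *Npas2* (-1.21) and *Clock* (-0.23) moved less. The study's own DESeq2 list of liver genes changed by zinc was drawn from these zinc-PBS and water-PBS livers, also with a fold threshold of 0.8. It holds *Arntl* and *Npas2* as reduced, although the fit of all 12 libraries called neither. Their values here are therefore no independent evidence.

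Under Dex, zinc-Dex against water-Dex, which shares no library with the comparison above, gave lower values for all 5 genes again. *Arntl* (-1.28 ± 0.290, 2.44-fold lower, adjusted p = 0.00252), *Npas2* (-1.80 ± 0.512, 3.49-fold lower, 0.0387) and *Cry1* (-1.16 ± 0.318, 2.23-fold lower, 0.0271) fell in DESeq2. These 3 of 5 compare with 0.164% of all 12786 genes tested that were called lower. *Clock* (-0.39 ± 0.128, adjusted p = 0.116) and *Nfil3* (-0.56 ± 0.247, 0.376) did not pass the test. In 5 of 5 genes every zinc-Dex library was below every water-Dex library, against 9.8% of all genes, and the median was -1.16 against 0.00 over all genes tested.

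The calls under Dex depended on the test. edgeR called 0 of 5, with adjusted p-values of 0.0628 for *Arntl*, 0.132 for *Cry1* and 0.151 for *Npas2* at nearly the same fold changes. When the fit held no other group, *Arntl* had 0.209. *Arntl* stayed called when any 1 of the 6 libraries was left out, at -0.91 (adjusted p = 0.0025) without zinc-Dex replicate 3. Without that liver *Npas2* stood at -1.57, *Cry1* at -1.02, *Nfil3* at -0.47 and *Clock* at -0.25. *Cry1* kept its call only without zinc-Dex replicate 1 and *Npas2* only without zinc-Dex replicate 2.

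**Figure D2:**
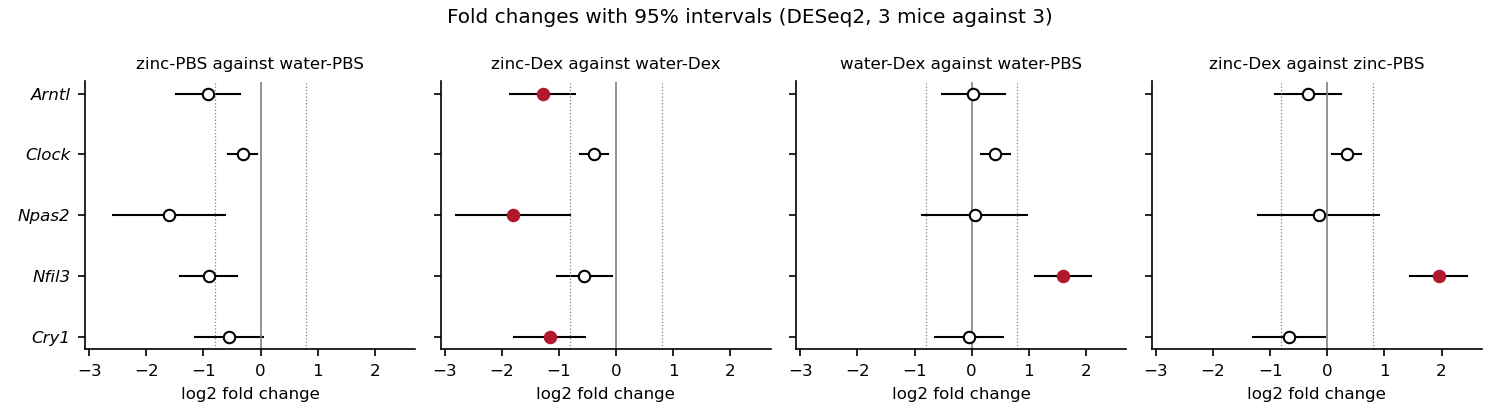
Log2 fold change (points) with 95% intervals (lines) of each gene in 4 comparisons of 3 mice against 3, from 1 DESeq2 fit of 12 libraries. Filled red points were called, open points were not, and dotted lines mark a log2 fold change of 0.8 in either direction. The 2 left panels (zinc) lie below 0 for each gene, and in the 2 right panels (Dex) only *Nfil3* was called.

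The zinc effect did not differ detectably between the injections. In the interaction of zinc and Dex, 0 of 5 genes were called by DESeq2 (0.0191% of all 26185 genes tested), 0 by edgeR, and 0 had an unadjusted p under 0.05 (1.99% of all genes). The 95% interval of the difference in log2 fold change, zinc effect under Dex minus that under PBS, ran from -1.16 to 0.43 for *Arntl*, -0.43 to 0.28 for *Clock* and -1.61 to 1.20 for *Npas2*. It ran from -0.35 to 1.05 for *Nfil3* and from -1.48 to 0.26 for *Cry1*. These intervals are wide, and only that of *Clock* excludes a difference of 0.8 in both directions.

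After seeing this, the mean of both zinc effects was taken as 1 contrast of the same fit, so that all 12 livers bear on it. This contrast includes the zinc-PBS and water-PBS livers from which the study listed *Arntl* and *Npas2*. The 5 genes were also chosen with earlier results of these data known, so its values are no independent evidence. All 5 genes were lower with an adjusted p under 0.05 in DESeq2, against 0.837% of all genes, and 3 of 5 passed the fold threshold as well, against 0.146%. The log2 values were -1.70 ± 0.358 for *Npas2* (adjusted p = 0.000493), -1.10 ± 0.204 for *Arntl* (3.45e-05), -0.86 ± 0.221 for *Cry1* (0.0104), -0.73 ± 0.178 for *Nfil3* (0.00497) and -0.35 ± 0.0905 for *Clock* (0.0107). In edgeR *Arntl* (adjusted p = 0.0183) and *Npas2* (0.0337) were under 0.05, and *Clock* (0.0622), *Nfil3* (0.0669) and *Cry1* (0.0739) were not. Without water-PBS replicate 1, *Arntl* stood at -1.05 (adjusted p = 0.000365), *Nfil3* at -0.49 (0.00393), *Cry1* at -0.61 (0.0438) and *Clock* at -0.31 (0.0509), and *Npas2* at -1.51 was given no adjusted p. Without zinc-Dex replicate 3, *Arntl* stood at -0.91 (1.11e-08), *Npas2* at -1.58 (0.00445), *Clock* at -0.28 (0.0201) and *Cry1* at -0.78 (0.046), and *Nfil3* (-0.69) had an adjusted p of 0.157.

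With Dex, *Nfil3* rose the most of the 5 genes. In water-Dex against water-PBS, *Nfil3* rose 3.03-fold (log2 1.60 ± 0.250, adjusted p = 3.42e-09), and it was the 1 of 5 genes called higher, against 4.89% of all 14221 genes tested. *Clock* was 1.33-fold higher (0.42 ± 0.127, adjusted p = 0.0078), under the fold threshold, so that 2 of 5 had an adjusted p under 0.05 and were higher, against 11.7% of all genes. *Arntl* (0.03 ± 0.283), *Npas2* (0.05 ± 0.472) and *Cry1* (-0.05 ± 0.304) had adjusted p-values of 0.936 to 0.961. The 95% interval ran from -0.52 to 0.59 for *Arntl* and from -0.65 to 0.54 for *Cry1*, and for *Npas2* it ran from -0.87 to 0.98, so a change past the threshold was not excluded there. Without water-PBS replicate 1, *Nfil3* stood at 2.08, and *Cry1* (0.44, adjusted p = 0.25) and *Npas2* (0.44, 0.632) still did not pass the test.

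On zinc water the same gene was called. In zinc-Dex against zinc-PBS *Nfil3* rose 3.86-fold (1.95 ± 0.253, adjusted p = 4.93e-13), again 1 of 5 called higher, against 5% of all 15657 genes tested. *Clock* was at 0.34 ± 0.129 (adjusted p = 0.042), which makes 2 of 5 higher by the adjusted p alone, against 11% of all genes. *Cry1* (-0.66 ± 0.320, 0.14), *Arntl* (-0.33 ± 0.294, 0.507) and *Npas2* (-0.15 ± 0.538, 0.903) did not pass the test. *Nfil3* stayed called in both Dex comparisons under each alternative run, at 1.35 to 2.08 on plain water and 1.83 to 2.15 on zinc water.

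The mice that received both treatments were set against the controls that received neither, a comparison that shares its libraries with those above. *Nfil3* was called higher (1.05 ± 0.250, adjusted p = 0.000284), 1 of 5 against 5.59% of all genes. *Arntl* (-1.25 ± 0.290, 0.000164), *Cry1* (-1.21 ± 0.317, 0.00108) and *Npas2* (-1.75 ± 0.513, 0.00434) were called lower, 3 of 5 against 5.63%. *Clock*, which was lower with zinc and higher with Dex in the single comparisons, was at 0.03 ± 0.128 (adjusted p = 0.915). Without water-PBS replicate 1, *Cry1* (-0.72, 0.0445) was under the fold threshold and *Npas2* (-1.36) had an adjusted p of 0.064, and *Nfil3* was just under the threshold without water-PBS replicate 3 (0.80).

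Of 26 other clock genes, 0 were called in zinc-PBS against water-PBS by DESeq2 (0.138% of all genes) or edgeR. *Tef* alone had an adjusted p under 0.05 and was higher (0.73 ± 0.176, 0.0163), 1 of 26 against 0.211% of all genes. Under Dex, zinc raised *Tef* (0.89 ± 0.177, adjusted p = 0.000337) and *Per3* (1.73 ± 0.507, 0.0498), 2 of 26 against 0.305% called higher, and lowered 0. edgeR called 1, and with a library left out the DESeq2 count lay between 1 and 4. *Per3* overlapped, at 53.2, 13.3 and 65.4 normalized counts in zinc-Dex and 15.2, 14.9 and 9.89 in water-Dex. *Tef*, an activator at D-boxes, was at a median of 672 normalized counts in water-PBS, 1093 in zinc-PBS, 641 in water-Dex and 1247 in zinc-Dex. The highest of the 6 livers on plain water was at 846 and the lowest of the 6 on zinc water at 899, so they did not overlap.

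Averaged over both injections, 3 of 26 were called higher with zinc, against 0.187% of all genes, and 5 of 26 were higher by the adjusted p alone, against 1.63%, and the first count was 0 when replicate 1 of water-Dex or of zinc-Dex was left out. They were *Dbp* (2.27 ± 0.665, adjusted p = 0.0324), *Per3* (1.57 ± 0.342, 0.000946) and *Tef* (0.81 ± 0.125, 1.11e-07), and below the fold threshold *Nr1d2* (0.55 ± 0.0997, 1.77e-05) and *Nr1d1* (0.45 ± 0.132, 0.0356). *Dbp* passed the DESeq2 test in neither single zinc comparison (adjusted p = 0.896 with PBS and 0.136 with Dex). Its livers overlapped under Dex, at 33.7, 7.78 and 108 normalized counts in zinc-Dex and 9.14, 10.6 and 0.989 in water-Dex. *Nr1d1* was at 0.12 ± 0.182 (unadjusted p = 0.52) in zinc-PBS against water-PBS and 0.77 ± 0.191 (adjusted p = 0.00815) in zinc-Dex against water-Dex. In DESeq2 the interaction of *Nr1d1* had an unadjusted p of 0.0127 and an adjusted p of 0.999. *Nr1d2* was at 0.45 ± 0.141 (adjusted p = 0.203) with PBS and 0.66 ± 0.141 (0.0011) with Dex. *Nr1d1* and *Nr1d2* encode the REV-ERB repressors of the *Arntl* group, and DBP and TEF act at the D-boxes where NFIL3 represses. *Rora*, which encodes an activator of the *Arntl* group, was at -0.08 ± 0.0945 (adjusted p = 0.859), and *Rorb* was at 0 in every library. *Cry2*, the paralog of *Cry1*, was at 0.28 ± 0.0960 (0.0942). Exons on the opposite strand overlap 18.01% of the exonic bases of *Dbp* (*Sphk2*) and 8.55% of those of *Nr1d1* (*Thra*), so their levels are uncertain where the counting ignored strand, whereas 33 bases of *Arntl* (0.44%) and none of the other 4 genes are overlapped in this way.

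**Figure D3:**
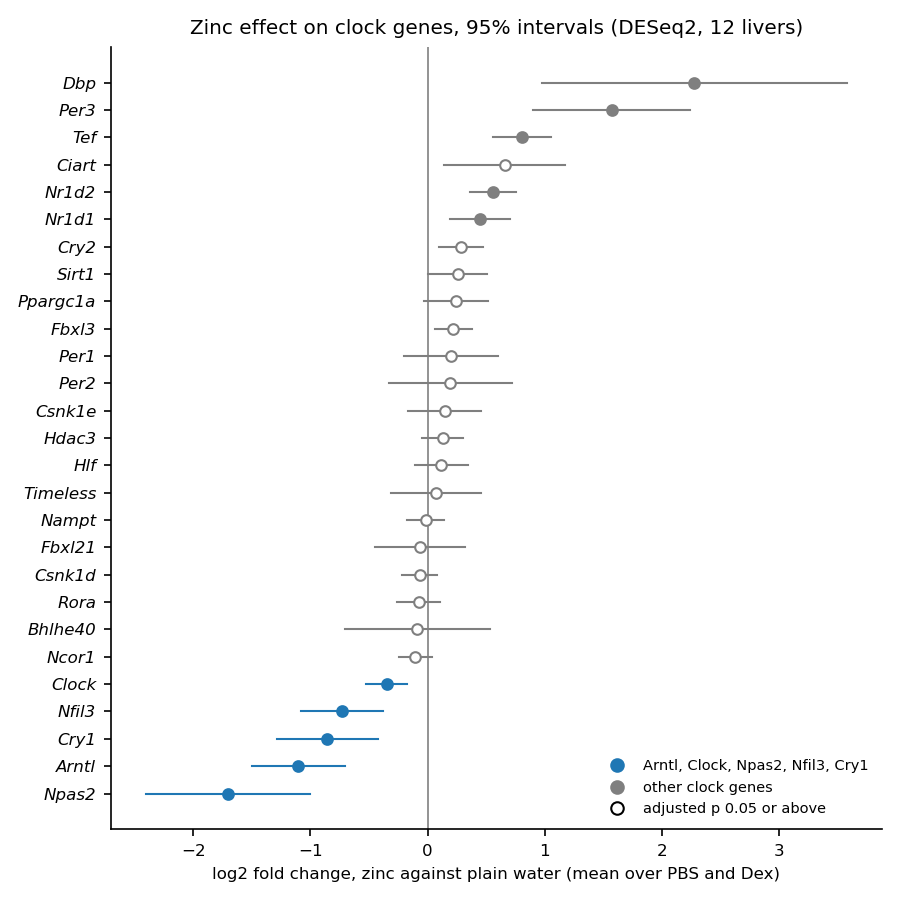
Log2 fold change of zinc against plain water, averaged over both injections (DESeq2, 12 livers), with 95% intervals, for *Arntl*, *Clock*, *Npas2*, *Nfil3* and *Cry1* (blue) and other clock genes that were given an adjusted p (grey). Open points have an adjusted p of 0.05 or above. The 5 blue genes are the lowest of those shown, and *Dbp*, *Per3* and *Tef* are the highest.

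Dex changed these other genes in both directions. In water-Dex against water-PBS, 5 of 26 were called higher (4.89% of all genes) and 7 of 26 lower (4.79%). Among the regulators of the *Arntl* group, *Nr1d1* fell (-2.15 ± 0.188, adjusted p = 4.86e-28) and *Rora* rose (1.10 ± 0.134, 9.6e-15), and *Nr1d2* (-0.11 ± 0.142, 0.677) did not pass the test. *Cry2* rose (1.15 ± 0.137, 3.04e-15), while *Cry1* was at -0.05. *Per1*, whose gene is a direct target of the glucocorticoid receptor, rose by 0.998 ± 0.290 (adjusted p = 0.00445), and *Ciart* and *Nampt* rose, while *Per2*, *Per3*, *Dbp*, *Bhlhe40*, *Fbxl21* and *Timeless* fell. On zinc water, 6 of 26 were called higher (5% of all genes) and 6 lower (4.68%), with *Nr1d1* at -1.49 ± 0.185 (3.35e-14) and *Rora* at 0.93 ± 0.134 (9.87e-11). *Ppargc1a*, which encodes a coactivator of the ROR receptors, was called there (0.84 ± 0.195, 0.000183), but not on plain water (0.60 ± 0.199, 0.0155), and the difference was not significant (interaction adjusted p = 0.999). *Bhlhe41* was called lower on zinc water at near-zero levels, 5.245 to 5.43 normalized counts in zinc-PBS and 0 to 0.961 in zinc-Dex, and exons on the opposite strand overlap 19.05% of its exonic bases. In the mice with both treatments against the controls, 7 of 26 were called higher (5.59% of all genes), *Ppargc1a* among them, and 5 lower (5.63%).

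**Figure D4:**
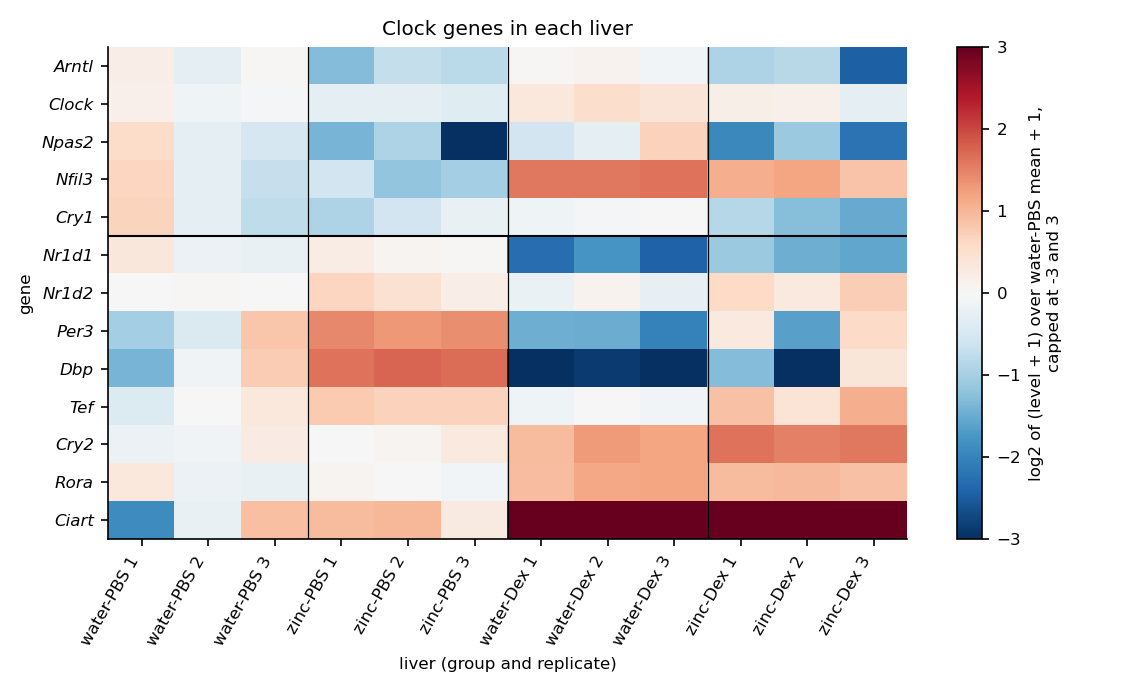
Level of clock genes (rows) in each of 12 livers (columns), as the log2 of the normalized count + 1 over the water-PBS mean + 1, with the colour capped at -3 and 3. *Arntl* and *Npas2* are blue in each zinc-treated liver, where *Tef* is red, and *Nfil3* is red in each Dex-injected liver.

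The genes most like each of the 5 were ranked by Pearson's r over the 12 libraries, on log2 (normalized count + 1), among 9573 genes (9574 for *Npas2*) whose mean reached 50 normalized counts. Since the libraries share 4 groups, r mostly describes group differences and is given with no p. *Arntl* was most like *Desi2* (0.908), *Stag1* (0.892), *Gclc* (0.878), *Mier2* (0.871) and *Ttbk2* (0.861). *Npas2* was most like *Saysd1* (0.880), *Prg4*, *Sorbs2*, *Zfp652* and the zinc transporter gene *Slc39a10* (0.819). *Clock* was most like *Letm1* (0.964), *Rnf144a*, *Efr3a*, *Itfg1* and *Leprotl1*, and *Cry1* most like *Slc11a2* (0.903), *Zfp335*, *Mical2*, *Usp45* and *Gsr*. *Nfil3* was most like *Ndrg1* (0.982), *Srsf6*, *Ap1g1*, *Tbc1d8* and *Vmp1*. No gene of the 5 was among the 5 most like another, but *Npas2*, whose mean was under 50, could not enter the lists of the others. Looked up after these values were seen, the genes most opposite to *Arntl* were *Asgr2* (-0.923), *Cpt1a* (-0.912), *Slc16a7* (-0.870), *Tef* (-0.869) and *Nr1d2* (-0.863). Among the 5 most opposite to *Npas2*, *Tef* (-0.848) was the only listed clock gene. The 5 most opposite to *Clock*, to *Nfil3* and to *Cry1* held no listed clock gene.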

How the data were processed

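Single-end stranded TruSeq libraries of total liver RNA from 12 mice had been sequenced. Per the labels, reads were trimmed with Trimmomatic and mapped to mm10 with HISAT2 2.0.4, and reads per Ensembl gene were counted with featureCounts. The deposited counts are raw, without any normalization by the authors, and the strand setting is not given in the sources used here. Columns were matched to groups by the labels, and none was left unused. Replicates differed by more than counting noise (chi-square per degree of freedom 6.20 to 20.7), so none was a copy. Nothing says whether mice of a group shared a cage.

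Tests used DESeq2 1.42.0 (R 4.3.3), the tool named in the study's methods, with all 4 groups in 1 model across all genes, Wald tests, unshrunken fold changes and Benjamini-Hochberg adjustment over all genes tested. Called means an adjusted p under 0.05 with a log2 fold change beyond 0.8 in either direction. All 5 members had at least 1 count in every library. With 3 mice against 3, an exact permutation test gives at least 0.10, and single genes were judged by the spread estimated across genes, and p-values measure the spread between these mice. The test was checked on simulated data. Alternatives were edgeR 4.0.16 (quasi-likelihood), TMM factors, a filter of at least 10 counts in at least 3 libraries, the replicate number as a block, only the 6 libraries compared, no fold threshold, no independent filtering, no Cook's distance filter and each library left out. The zinc effect averaged over both injections and the wider promoter window were added after seeing the data. Symbols, lengths and overlaps came from GENCODE M21, and 54809 of 54838 identifiers matched. Promoter sequences came from RefSeq (GRCm38.p6), where all 5 members matched. The members, the list of 26 other clock genes and the marker lists were chosen with earlier results of these data known. The text names all members, the other clock genes called in a comparison, the paralogs and the direct regulators, and the 5 genes most like each member. Values of 1 listed clock gene are not reported here.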

Additional observations from a re-analysis of the deposited data

How the results depend on the processing

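Of the members' fold changes recomputed under the alternatives, 453 kept their direction and their side of the threshold, 27 lost a call, 6 gained one and 19 changed sign, none of which was called. A run without an adjusted p counts as a lost call. The 3 lost by *Npas2* for zinc averaged over both injections were of this kind. The causes were not tested. In zinc-PBS against water-PBS, the count of members called went from 0 to 1 with the replicate block and with only the libraries compared, and lay between 0 and 1 with a library left out. For the other clock genes it went from 0 to 1 with only the libraries compared and with no fold threshold, and lay between 0 and 2 with a library left out. In zinc-Dex against water-Dex, members called fell from 3 to 0 in edgeR, to 1 without independent filtering and to between 1 and 2 with a library left out. The other clock genes went from 2 to 1 in edgeR, with the low-count filter and without independent filtering, to 4 with no fold threshold, and to between 1 and 4 with a library left out. With no fold threshold, members called went from 1 to 2 in both comparisons of Dex with PBS on the same water, and for zinc averaged over both injections to 5, with 5 other clock genes. With a library left out, these last counts lay between 1 and 4 for members and between 0 and 4 for other clock genes, and zinc-Dex against water-PBS gave 2 to 4 members. Values near 0 changed sign when a library was left out. In water-Dex against water-PBS these ranged from -0.32 to 0.44 for *Cry1* (0.00194 with the replicate block), -0.0869 to 0.14 for *Arntl* and -0.43 to 0.44 for *Npas2*. In zinc-Dex against zinc-PBS they ranged from -0.58 to 0.33 for *Npas2* and -0.61 to 0.0376 for *Arntl*, and in zinc-Dex against water-PBS from -0.0452 to 0.17 for *Clock*. The interaction ranged from -0.13 to 0.60 for *Nfil3*, -0.63 to 0.28 for *Npas2*, -0.64 to 0.00441 for *Arntl* and -0.16 to 0.0628 for *Clock*. With lengths of the longest transcript, *Arntl* stood above *Cry1* in each group.

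Replicate numbers gave no sign of a pairing of the mice. The deviations of same-numbered mice from their group means correlated over 0.1 in 1 of 18 pairs (-0.204 to 0.191). Of pairs with other numbers, 7 of 36 did (-0.245 to 0.284). The numbers were therefore treated as names, but whether they follow the order of sampling was not tested. The block added the call of *Nfil3* in zinc-PBS against water-PBS (-0.86, adjusted p = 0.0342) and changed no other call of a member. Depth limits *Npas2*, with as few as 4.53 normalized counts in a library.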
